A study of Mus musculus with 6 samples.

Results

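The Reg lectins, the resistin-like molecule Retnlb and the serum amyloid A proteins are secreted proteins with which the gut lining and, for serum amyloid A, the liver respond to microbes. All probe sets that the array's annotation maps to Reg1, Reg3a, Reg3b, Reg3g, Retnlb, Saa1, Saa2 or Saa3 were taken, whatever their signal. These were 10 probe sets for 8 genes, among 12393 genes with a probe set of their own on the array. Their signals were followed in mouse ileum over 3 groups of 2 arrays.

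All mice were wild-type males of a mixed C57BL/6:129Sv background, aged 8 to 10 months and fed standard chow. In the BDL_GW4064 group the common bile duct was tied off, which keeps bile out of the intestine, and GW4064, a synthetic agonist of the nuclear bile acid receptor FXR (gene Nr1h4), was given by gavage at 100 mg/kg/day, starting 2 days ahead of surgery and continuing for 5 days afterwards. BDL_Vehicle mice had the same ligation with the vehicle alone (1% Tween80, 1% methylcellulose), and Sham_Vehicle mice had the duct mobilised but not tied, with vehicle. GW4064 was therefore set against vehicle only in ligated mice. The title of the series places it in the control of antibacterial defence of the small intestine by FXR, so the arrays address what loss of bile and the agonist do to such genes. The labels leave unstated whether duplicates were different animals, and p-values here cover the spread between the 2 samples of each group, possibly a technical one only.

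Reg3b and Reg3g are C-type lectins that Paneth cells and enterocytes release into the lumen, where Reg3g binds the peptidoglycan of Gram-positive bacteria and keeps bacteria at a distance from the epithelium. Their transcription is raised by bacteria through Toll-like receptors and the adaptor MyD88, and by IL-22 through STAT3. Retnlb is a goblet cell product that acts on Gram-negative bacteria. Saa1 and Saa2 are acute phase apolipoproteins that carry retinol and are induced in ileal epithelium by bacteria that attach to it, and Saa3 is also made by macrophages and fat cells.

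The values were MAS5 signals, a linear brightness in which each array had been scaled to a trimmed mean of 200.1 before deposit. Differences are on the log2(signal + 4) scale, which understates changes of dim probe sets. Probe sets in the lowest 40% by mean signal were left out of the test, and this bound, a signal of 37.1, served as the floor for dim signals. Of the 10 probe sets 6 passed it, for Reg1, Reg3a, Reg3b (2 probe sets), Reg3g and Saa2, and 4 lay below it, for Retnlb, Saa1 (2 probe sets) and Saa3. Goblet cell markers (7 of 7) and enterocyte markers (10 of 10) were above the floor on all arrays, and all 4 markers of ileal enterocytes passed the filter. The 5′ signal of 18S ribosomal RNA divided the arrays into 2 sets: it was 9.0 and 8.6 in BDL_GW4064 and 88.7 and 13.3 in BDL_Vehicle, against 88.0 and 67.3 in Sham_Vehicle. The ratio of actin 3′ to 5′ signal, a sign of RNA quality, was 1.73 in Sham_Vehicle replicate 2 and between 1.09 and 1.22 in the other arrays.

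No member passed the test in any comparison (limma, adjusted p under 0.05), and the directions given below are those of the measured signals. The main features were lower signals with GW4064 than with vehicle in ligated mice for Reg1, Reg3a, Reg3b, Reg3g, Saa1 and Saa2, higher ones for Saa3, and very unequal Saa1 signals between arrays of one group.

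**Figure D1:**
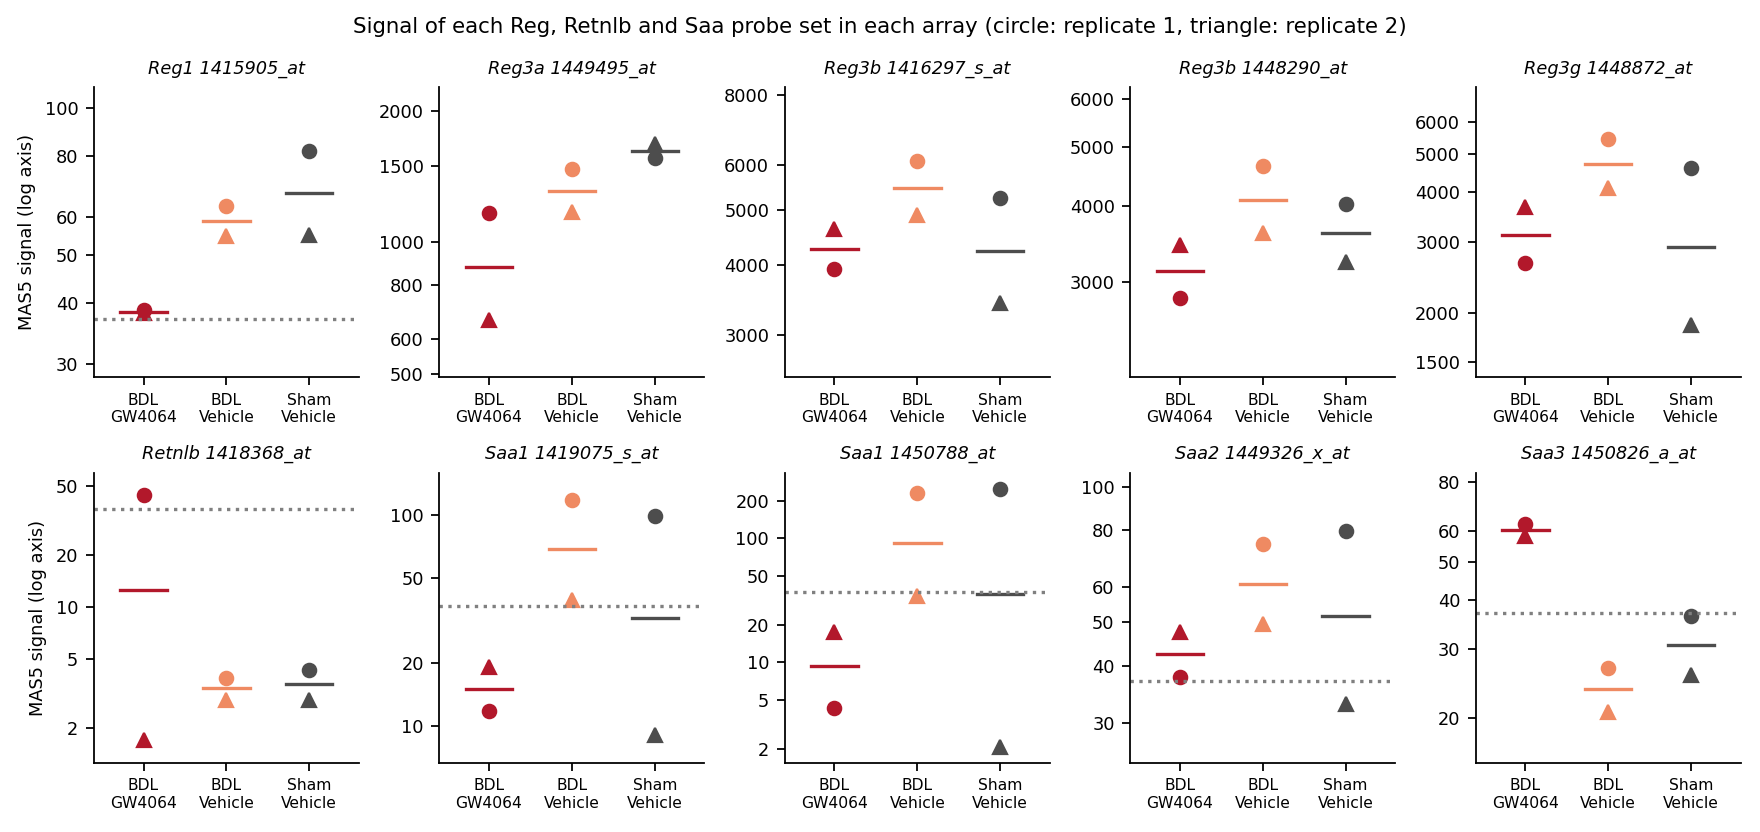
MAS5 signal (log axis, a scale of its own in each panel) of each probe set in the BDL_GW4064, BDL_Vehicle and Sham_Vehicle arrays; circles are replicate 1, triangles replicate 2, bars the mean of the 2 log2 values and the dotted line the floor of 37.1. In 8 of 10 panels both BDL_GW4064 points lie below both BDL_Vehicle points, and the Saa1 panels have replicate 1 far above replicate 2 in BDL_Vehicle and in Sham_Vehicle.

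Reg3g and Reg3b were the brightest members. Reg3g had signals of 2664.1 and 3677.2 in BDL_GW4064, 5448.0 and 4096.4 in BDL_Vehicle, and 4599.7 and 1861.2 in Sham_Vehicle. Both treated arrays lay below both arrays of ligated mice given vehicle, while the 2 sham arrays spanned nearly the whole range and overlapped with both other groups. The lowest value was that of the array with the high actin ratio.

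For Reg3b, the probe set 1416297_s_at, whose suffix marks probes shared between transcripts, gave 3936.3 and 4624.9 in BDL_GW4064, 6116.3 and 4898.8 in BDL_Vehicle, and 5253.5 and 3415.2 in Sham_Vehicle. The probe set 1448290_at gave 2828.7 and 3447.0 in BDL_GW4064, 4644.1 and 3612.9 in BDL_Vehicle, and 4030.6 and 3242.0 in Sham_Vehicle. Both probe sets had BDL_GW4064 below BDL_Vehicle without overlap, and Sham_Vehicle overlapping with both, as for Reg3g. Over the 6 arrays the log2 signals of Reg3g correlated with those of 1416297_s_at (Pearson r = 0.989) and of 1448290_at (r = 0.81). The 2 Reg3b probe sets correlated with each other at r = 0.874. Whether the shared probes of 1416297_s_at also picked up Reg3g RNA was not tested.

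Reg3b and Reg3g stand in one cluster on chromosome 6, in the order Reg3b, Reg3d, Reg3a, Reg2, Reg1 and Reg3g, so that 4 of its 6 genes are members. The 250 bases before the start of each are shown, from RefSeq (GRCm38.p6), 5′ to 3′ in the direction of the gene. Their longest common run of 20 bases, which ends at the start, is in capitals. Any relation of this sequence to the likeness of the signals was not tested. Reg3b lies at chr6:78370635-78370884 on the + strand and Reg3g at chr6:78468875-78469124 on the - strand.
Reg3b: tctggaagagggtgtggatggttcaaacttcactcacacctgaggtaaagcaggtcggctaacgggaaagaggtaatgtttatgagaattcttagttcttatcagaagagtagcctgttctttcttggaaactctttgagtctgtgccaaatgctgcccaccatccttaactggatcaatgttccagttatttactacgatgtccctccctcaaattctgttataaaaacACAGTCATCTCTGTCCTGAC
Reg3g: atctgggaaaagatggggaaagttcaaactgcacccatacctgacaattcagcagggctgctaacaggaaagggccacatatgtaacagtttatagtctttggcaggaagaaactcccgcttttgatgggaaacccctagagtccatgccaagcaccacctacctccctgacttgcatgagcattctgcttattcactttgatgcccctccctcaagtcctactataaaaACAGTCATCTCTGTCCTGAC
The 2 windows had 177 identical bases in 257 aligned columns (68.9%), whereas every other pair of Reg or Saa genes outside Saa1 and Saa2 had between 46.2% and 53.3%.

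The windows, from 250 bases before to 50 bases after the start, were searched on both strands for short motifs in the 7 members that the table held, which were all but Retnlb. The STAT-type motif TTCNNNGAA was found in Reg3b, at position -129 from the start, and is present in 8.3% of 32851 windows of the genome. It was not in the windows of the other 6. The TATA motif TATAAA, present in 13.6% of windows, was found in Reg3b, Reg3g and Reg1. The FXR-type inverted repeat, AGGTCA and its reverse complement with 1 base of any kind between them, was in 3 of the 32851 windows (0.00913%) and in no member. A match is a string of letters, not a site of binding, and its absence concerns this window only.

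Reg3a, a lectin of the same family, followed another order. Its signals were 1168.7 and 662.8 in BDL_GW4064, 1473.5 and 1173.1 in BDL_Vehicle, and 1566.2 and 1685.7 in Sham_Vehicle. The 3 groups did not overlap, with Sham_Vehicle highest and BDL_GW4064 lowest, although the upper treated array lay just under the lower vehicle array of ligated mice. Its correlation with Reg3g over the 6 arrays was r = -0.116 and with Reg1 r = 0.735.

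Reg1, known chiefly as a growth-promoting lectin of the pancreas and regenerating mucosa, was dim. It had 38.7 and 38.0 in BDL_GW4064, 63.1 and 54.7 in BDL_Vehicle, and 82.0 and 55.0 in Sham_Vehicle. The treated arrays sat just above the floor and below all 4 others, and the 2 vehicle groups overlapped. Pancreatic tissue also makes Reg1, and pancreatic acinar markers summed to 7541.3 and 6887.7 in BDL_GW4064, 7175.0 and 6694.3 in BDL_Vehicle, and 7511.9 and 6607.4 in Sham_Vehicle. Of 13 markers measured, 6 were above the floor on at least 1 array. The 4 above it on all arrays were Zg16, Clps, Cela1 and Rnase1. Zg16 is also a goblet cell marker and had 5804.6 or more on each array. Among the other markers, the digestive enzymes Cpa1, Cpb1 and Ctrb1 were between 1.3 and 9.1. The part of pancreatic tissue in the Reg1 values was not tested.

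Retnlb, the resistin-like goblet cell protein, had 44.4 and 1.7 in BDL_GW4064, 3.9 and 2.9 in BDL_Vehicle, and 4.3 and 2.9 in Sham_Vehicle. A single array, BDL_GW4064 replicate 1, was above the floor, and the other array of that group had the lowest signal of all 6. Goblet cell markers were near level between groups, with a median log2 difference of 0.02 for BDL_GW4064 minus BDL_Vehicle and -0.02 for BDL_Vehicle minus Sham_Vehicle over 7 genes.

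Saa1 and Saa2 are near-identical neighbours in the chromosome 7 cluster Saa3, Saa4, Saa1 and Saa2, and their probe sets cannot be assigned to one gene with confidence. The probe set 1419075_s_at is annotated to Saa1, but the transcript it was designed on belongs to Saa2 in RefSeq, which also lists each name as a synonym of the other gene, and the Saa2 probe set 1449326_x_at carries the suffix for probes that may cross-hybridise. The probe set 1450788_at of Saa1 had 4.3 and 17.5 in BDL_GW4064, 233.6 and 34.3 in BDL_Vehicle, and 251.2 and 2.1 in Sham_Vehicle. Thus 2 arrays, replicate 1 of BDL_Vehicle and of Sham_Vehicle, were bright, and the other 4 were below the floor.

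The probe set 1419075_s_at gave 11.8 and 19.0 in BDL_GW4064, 117.0 and 39.6 in BDL_Vehicle, and 98.1 and 9.1 in Sham_Vehicle. The Saa2 probe set gave 37.9 and 47.7 in BDL_GW4064, 74.5 and 49.5 in BDL_Vehicle, and 79.6 and 33.0 in Sham_Vehicle. In all 3 probe sets both treated arrays were below both BDL_Vehicle arrays, and Sham_Vehicle held the lowest array and one of the 2 highest. The log2 signals of the 3 probe sets correlated at r between 0.975 and 0.994 over the 6 arrays.

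With signals below the floor set to 37.1, the replicates of 1450788_at differed 5.78-fold within BDL_Vehicle and 6.21-fold within Sham_Vehicle. Among 22626 probe sets, 3 had a gap as large within BDL_Vehicle and 10 within Sham_Vehicle, this one included. The gap in Sham_Vehicle was 2.48-fold for 1419075_s_at, 2.03-fold for Saa2 and 2.47-fold for Reg3g, each with replicate 1 higher. Reg3g and the first Reg3b probe set correlated with the Saa1 and Saa2 probe sets at r between 0.91 and 0.937. The second Reg3b probe set, 1448290_at, correlated with them at r between 0.876 and 0.92, and with Reg1 at r = 0.711. Reg1 followed the Saa1 and Saa2 probe sets in part, with r between 0.698 and 0.749, and Reg3a little, with r between 0.169 and 0.287. The pattern was thus closest among Reg3b, Reg3g, Saa1 and Saa2 and was not shared by all members.

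The windows before Saa1 and Saa2 are shown because they differ at few bases. They lie at chr7:46742981-46743230 on the - strand for Saa1 and chr7:46751583-46751832 on the + strand for Saa2 (RefSeq, GRCm38.p6). Capitals mark the C/EBP-type motif TTGCNNAA.
Saa1: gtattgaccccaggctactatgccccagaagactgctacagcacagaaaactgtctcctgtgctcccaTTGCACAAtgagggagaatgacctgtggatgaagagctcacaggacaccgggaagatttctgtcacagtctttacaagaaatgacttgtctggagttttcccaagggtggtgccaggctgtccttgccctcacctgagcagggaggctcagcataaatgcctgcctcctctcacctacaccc
Saa2: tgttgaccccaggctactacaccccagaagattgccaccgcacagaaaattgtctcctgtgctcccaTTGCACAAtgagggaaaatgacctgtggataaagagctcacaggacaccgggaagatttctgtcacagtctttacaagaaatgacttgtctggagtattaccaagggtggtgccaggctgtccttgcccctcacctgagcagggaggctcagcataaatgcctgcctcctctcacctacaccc
They had 238 identical bases in 251 aligned columns (94.8%) and shared a run of 65 bases. The motif TTGCNNAA, present in 10.8% of all windows, began at position -182 in Saa1 and -183 in Saa2 and was also found in Saa3 and Reg3a. The nuclear receptor motif AGGTCA, which the inverted repeat also holds, present in 16.3% of windows, was found in Saa1 and Saa2 among the 7 members.

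Saa3, which in mice is made mainly outside the liver, had a different order of groups from Saa1 and Saa2. Its signals were 62.7 and 58.2 in BDL_GW4064, 26.9 and 20.8 in BDL_Vehicle, and 36.4 and 25.8 in Sham_Vehicle. Only the 2 treated arrays were above the floor, and they lay above all 4 others. Over the 6 arrays its log2 signal correlated negatively with every other member but Retnlb (r = 0.554).

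**Figure D2:**
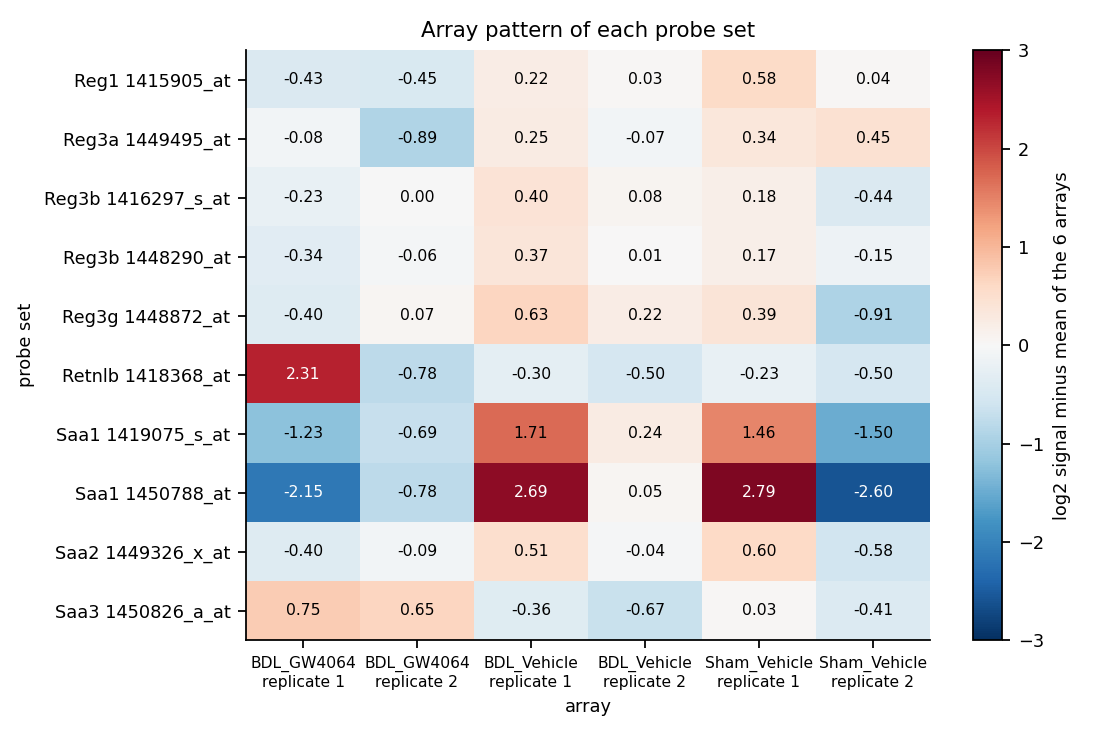
Log2 signal of each probe set (rows) in each of the 6 arrays (columns) minus its mean over the arrays. The Reg3b, Reg3g, Saa1 and Saa2 rows are highest in replicate 1 of BDL_Vehicle or of Sham_Vehicle, Saa3 is highest in the 2 BDL_GW4064 arrays, and the deviations of 1450788_at run from -2.60 to 2.79.

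Ligation was examined by setting BDL_Vehicle against Sham_Vehicle. Mean Reg3g signal was 4772 ± 956 in BDL_Vehicle and 3230 ± 1936 in Sham_Vehicle (SD, n = 2 each), a log2 difference of 0.69 ± 0.38 (SE, 95% interval -0.19 to 1.57, limma adjusted p = 0.751). The Reg3b probe sets differed by 0.37 ± 0.21 (1416297_s_at, interval -0.11 to 0.85, adjusted p = 0.753) and 0.18 ± 0.17 (1448290_at, interval -0.21 to 0.57, adjusted p = 0.842). These values were above 0 but not beyond the spread between arrays, and the intervals hold both no change and a rise.

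Without Sham_Vehicle replicate 2 the Reg3g difference was 0.04, and without Sham_Vehicle replicate 1 it was 1.34. Its size thus depended on which of the 2 sham arrays was kept. The first Reg3b probe set moved likewise, to 0.059 and 0.68, and the second lay between -0.001 and 0.36 when single arrays were left out. Reg3a differed by -0.31 ± 0.25 (interval -0.88 to 0.27, adjusted p = 0.83), with means of 1323 ± 212 in BDL_Vehicle and 1626 ± 84.5 in Sham_Vehicle. Reg1 differed by -0.18 ± 0.26 (adjusted p = 0.9) and Saa2 by 0.22 ± 0.41 (adjusted p = 0.929). The sign of Saa2 turned when single arrays were left out, to -0.37 without Sham_Vehicle replicate 2 and -0.06 without BDL_Vehicle replicate 1.

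For the 4 probe sets below the filter, a fit without it gave 0.99 (1419075_s_at, interval -1.15 to 3.13) and 1.27 (1450788_at, interval -2.52 to 5.06) for Saa1, with adjusted p of 0.889 and 0.919. Without Sham_Vehicle replicate 2 these were -0.49 and -1.42, and without Sham_Vehicle replicate 1 they were 2.47 and 3.97. Both Retnlb and Saa3 were under the floor in both groups, so no fold is given. Limma called 0 of 6 tested member probe sets at the adjusted threshold, where 0.0295% of 13575 probe sets were called, and 0 at an unadjusted p under 0.05, where 3.39% were higher and 2.98% lower. Groups did not overlap for 1 of 10 member probe sets, Reg3a, which was lower, against 20.7% of all 22626 probe sets lower and 14.5% higher. The median over the 6 tested was 0.20, against -0.01 over all tested.

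The GW4064 effect in ligated mice was examined by setting BDL_GW4064 against BDL_Vehicle. Mean Reg3g signal was 3171 ± 716 in BDL_GW4064 and 4772 ± 956 in BDL_Vehicle (SD, n = 2 each), a log2 difference of -0.59 ± 0.38 (interval -1.47 to 0.28, adjusted p = 0.816). Reg3b differed by -0.36 ± 0.21 (1416297_s_at, adjusted p = 0.795) and -0.39 ± 0.17 (1448290_at, interval -0.78 to -0.004, adjusted p = 0.66). Both probe sets of the gene thus gave nearly the same difference, and neither passed after adjustment.

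Reg3a averaged 916 ± 358 in BDL_GW4064 and 1323 ± 212 in BDL_Vehicle and differed by -0.58 ± 0.25 (adjusted p = 0.668), with -0.98 without BDL_GW4064 replicate 1 and -0.17 without BDL_GW4064 replicate 2. Reg1 averaged 38.4 ± 0.495 in BDL_GW4064 and 58.9 ± 5.94 in BDL_Vehicle and differed by -0.57 ± 0.26 (interval -1.18 to 0.04, adjusted p = 0.701). Saa2 averaged 42.8 ± 6.93 in BDL_GW4064 and 62.0 ± 17.7 in BDL_Vehicle and differed by -0.48 ± 0.41 (interval -1.42 to 0.46, adjusted p = 0.879). The 6 tested differences were of like size, from -0.59 to -0.36, with a median of -0.52 against -0.01 over all probe sets tested.

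In Saa1, whose BDL_GW4064 arrays were below the floor, the bounds were at least 1.77-fold lower (1419075_s_at, adjusted p = 0.759 without the filter) and at least 2.32-fold lower (1450788_at, adjusted p = 0.82). Both bounds rest on BDL_Vehicle replicate 1, since replicate 2 had 39.6 and 34.3, near or under the floor. The fitted differences were -1.93 and -2.84, against -1.19 and -1.52 without that array and the same with the term for the 18S sets. Saa3, whose BDL_Vehicle arrays were below the floor, was at least 1.57-fold higher in BDL_GW4064, with a log2 difference of 1.22 in the fit without the filter (interval 0.49 to 1.94, adjusted p = 0.481), and from 1.06 to 1.38 when single arrays were left out. Retnlb differed by 1.17 (interval -0.83 to 3.17, adjusted p = 0.875), and by -0.37 without its 1 bright array.

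Limma called 0 of the 6 tested at the adjusted threshold, where 0.0516% of all probe sets were called, and 1, Reg3b 1448290_at, at an unadjusted p under 0.05, where 3.06% were lower and 4.43% higher. Over all 10 probe sets, 8 were lower without overlap (all but Retnlb and Saa3) and 1 was higher (Saa3), against 16.5% lower and 18.1% higher among 22626 probe sets. The 8 are not independent, since Reg3b, Reg3g, Saa1 and Saa2 shared an array pattern and Saa1 and Saa2 share sequence. BDL_Vehicle replicate 2 and both BDL_GW4064 arrays had low 18S signal and BDL_Vehicle replicate 1 had a high one. With a term for these sets, which leaves BDL_Vehicle replicate 2 alone as the counterpart, the differences were -0.39 for Reg3g, -0.20 and -0.21 for Reg3b, -0.41 for Reg3a, -0.47 for Reg1, -0.20 for Saa2 and 1.38 for Saa3.

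**Figure D3:**
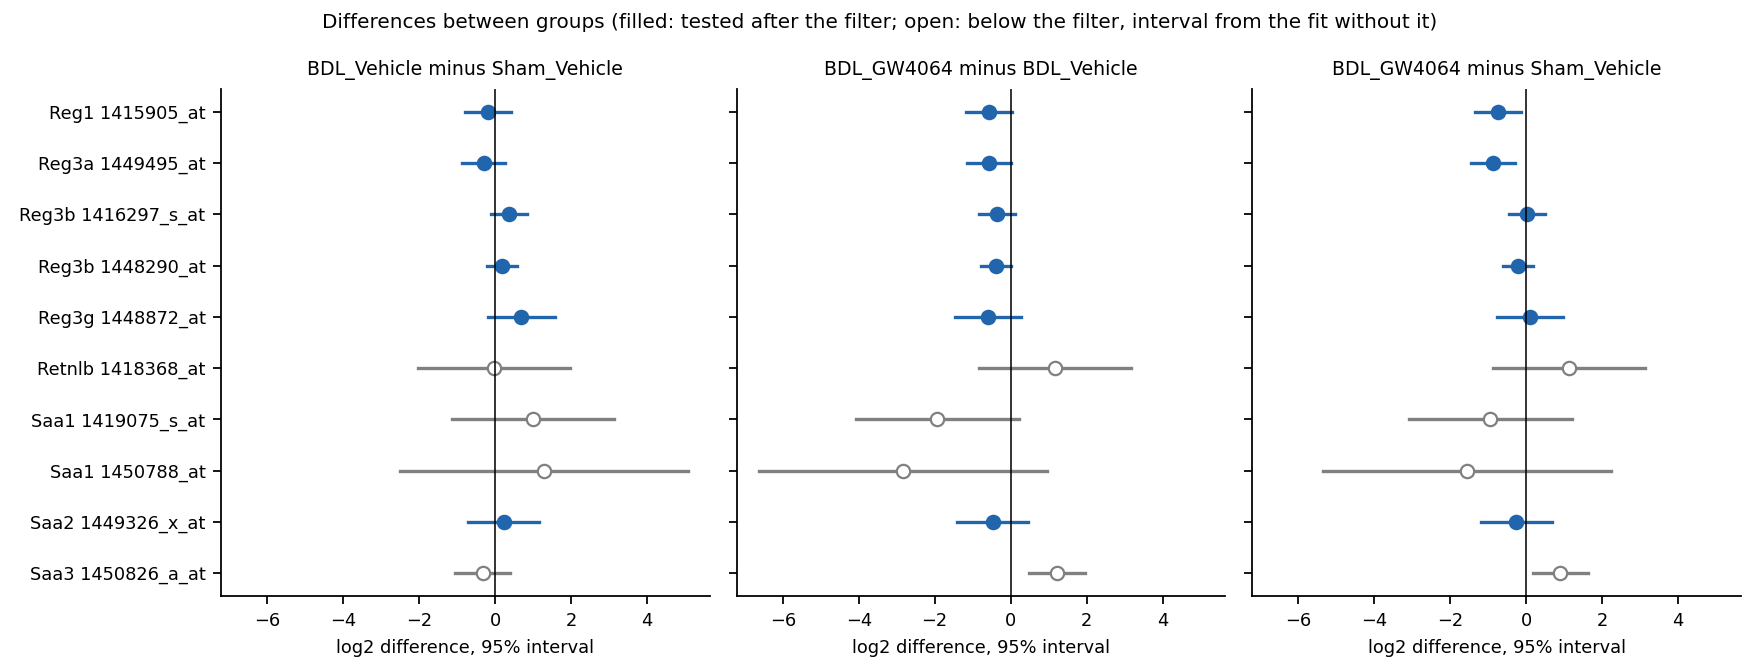
Log2 difference with its 95% interval for each probe set in the 3 comparisons; filled points passed the filter and open points come from the fit without it. In the middle panel the tested points run from -0.59 to -0.36 and the widest intervals are those of Saa1.

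BDL_GW4064 was also set against Sham_Vehicle, which shares its arrays with the other comparisons and combines both interventions. Reg3a had the largest tested difference, -0.88 ± 0.25 (interval -1.46 to -0.30, adjusted p = 0.203), with means of 916 ± 358 in BDL_GW4064 and 1626 ± 84.5 in Sham_Vehicle. Reg1 differed by -0.75 ± 0.26 (interval -1.36 to -0.14, adjusted p = 0.247). With the 18S term these values were -0.55 and -0.56. In the fit without that term, the Reg3a difference was -0.47 when BDL_GW4064 replicate 2 was left out. It was -1.29 when BDL_GW4064 replicate 1 was left out.

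Reg3g differed by 0.10 ± 0.38 (interval -0.78 to 0.97, adjusted p = 0.925), Reg3b by 0.01 ± 0.21 and -0.21 ± 0.17, and Saa2 by -0.26 ± 0.41, so these were near sham levels with wide intervals. Saa3 was at least 1.57-fold higher in BDL_GW4064, with 0.89 in the fit without the filter (interval 0.17 to 1.62, adjusted p = 0.323). In that fit Saa1 differed by -0.94 (1419075_s_at) and -1.56 (1450788_at), or by 0.54 and 1.13 without Sham_Vehicle replicate 1, and Retnlb by 1.13, or by -0.41 without BDL_GW4064 replicate 1. Limma called 0 of 6, where 0.0368% of all were called, and Reg1 and Reg3a were lower at an unadjusted p under 0.05, where 8.67% were lower and 7.31% higher. Without overlap, Reg1 and Reg3a were lower and Saa3 higher, against 25.5% lower and 19.5% higher among all probe sets.

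Nr0b2, the FXR target that encodes the repressor SHP, shows that the same arrays could carry a call for a very large difference. It had 691.7 and 493.5 in BDL_GW4064 and 10.8 and 3.5 in BDL_Vehicle (log2 difference 5.80 ± 0.39, limma adjusted p = 0.00415). Against Sham_Vehicle it was not called, at -3.07 ± 0.39 in BDL_Vehicle (adjusted p = 0.12) and 2.73 ± 0.39 in BDL_GW4064 (adjusted p = 0.103). Calls were not confined to such sizes. Fabp6, a bright marker of ileal enterocytes, was called by limma at -1.20 ± 0.105 with ligation (adjusted p = 0.0194). With GW4064 it was called at 1.20 ± 0.105 (adjusted p = 0.0119). Fgf15, another such marker, was called at -5.55 ± 0.25 (adjusted p = 0.000344) and 6.73 ± 0.25 (adjusted p = 7.93e-05). The differences of the tested members were smaller, from -0.88 to 0.69, with SE from 0.17 to 0.41, and could go uncalled.

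The genes that act upstream of these proteins were followed as lists, 1 probe set a gene, beside 7919 genes in all. Of 26 genes of IL-22, IL-6 and STAT3 signalling 14 were tested. In BDL_Vehicle against Sham_Vehicle 7 were higher and 7 lower with a median of -0.02, and in BDL_GW4064 against BDL_Vehicle 10 were higher and 4 lower with a median of 0.19 (0.00 over all genes). Limma called 0 in either comparison. By smallest p, Stat3 itself differed by 0.35 ± 0.13 with ligation (adjusted p = 0.751).

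With GW4064, Osmr, the receptor subunit for oncostatin M, had 77.1 and 66.7 in BDL_GW4064 against 29.1 and 34.5 in BDL_Vehicle (1.09 ± 0.32, adjusted p = 0.426). Il6st, the shared signal-transducing receptor chain of the IL-6 family, had 118.7 and 177.6 in BDL_GW4064 against 97.9 and 85.1 in BDL_Vehicle (0.65 ± 0.24, adjusted p = 0.566). Bcl3, a co-regulator of NF-kappaB, had 183.7 and 202.1 in BDL_GW4064 against 314.9 and 249.3 in BDL_Vehicle (-0.53 ± 0.17, adjusted p = 0.487). Osmr and Il6st were thus higher in BDL_GW4064 and Bcl3 lower, and none passed. Other tested receptor chains of the list differed less: Il10rb by 0.02 ± 0.15, Il6ra by 0.23 ± 0.29 and Il17ra by 0.27 ± 0.19.

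In Toll-like receptor and MyD88 signalling 12 of 25 genes were tested and 0 were called: 8 were higher with ligation (median 0.10) and 4 with GW4064 (median -0.05). With GW4064 the smallest p was that of Tlr3, the receptor for double-stranded RNA, which had 376.2 and 282.2 in BDL_GW4064 against 211.0 and 213.7 in BDL_Vehicle (0.61 ± 0.18, adjusted p = 0.426). Next came Nfkbiz, an NF-kappaB co-regulator, with 176.4 and 214.6 in BDL_GW4064 against 343.5 and 274.1 in BDL_Vehicle (-0.65 ± 0.27, adjusted p = 0.649). With ligation the smallest was that of Tnfaip3, which restrains NF-kappaB, with 86.5 and 108.7 in BDL_Vehicle against 64.3 and 55.5 in Sham_Vehicle (0.66 ± 0.22, adjusted p = 0.751). Genes of this list thus differed in both directions, and none passed.

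Of the type 2 cytokine list upstream of Retnlb 5 of 12 genes were tested, with Il4ra at 0.50 ± 0.20 with ligation (adjusted p = 0.751) and Cdx2, an intestinal transcription factor that drives Retnlb, at -0.48 ± 0.16 with GW4064 (adjusted p = 0.523). Of other epithelial genes that respond to STAT3 or microbes 10 of 19 were tested and 0 called. With ligation 7 were higher and 3 lower (median 0.08), and with GW4064 5 were higher and 5 lower (median 0.16). Il18, an epithelial cytokine, had 729.1 and 1154.9 in BDL_GW4064, 464.9 and 378.7 in BDL_Vehicle, and 303.6 and 325.4 in Sham_Vehicle (1.12 ± 0.22 for BDL_GW4064 minus BDL_Vehicle, adjusted p = 0.26). Slpi, a secreted antimicrobial protease inhibitor, differed by 0.94 ± 0.33 with GW4064 (adjusted p = 0.538).

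Acute phase genes of the liver type, among which Saa1 and Saa2 are usually counted, were mostly dim, with 5 of 16 tested and 0 called. Serpina3n, a serine protease inhibitor, had 87.1 and 108.1 in BDL_GW4064, 22.0 and 28.6 in BDL_Vehicle, and 33.2 and 25.8 in Sham_Vehicle. It differed by 1.80 ± 0.28 with GW4064 (adjusted p = 0.134) and -0.19 ± 0.28 with ligation. Cp, the copper carrier ceruloplasmin, had 59.5 and 77.9 in BDL_GW4064, 29.6 and 43.1 in BDL_Vehicle, and 25.2 and 29.6 in Sham_Vehicle, and differed by 0.86 ± 0.29 with GW4064 (adjusted p = 0.526). Of the 5 tested genes, 3 were higher with GW4064, as Saa3 was, and 2 were lower, as Saa1 and Saa2 were.

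Markers of cells that make these proteins were read on the same arrays, and in whole tissue fewer cells of a type cannot be told apart from less RNA per cell. Paneth cell markers, beside Reg3g and Reg3b, summed to 10676.3 and 11893.7 in BDL_GW4064, 12355.8 and 9925.9 in BDL_Vehicle, and 11722.5 and 9512.5 in Sham_Vehicle. Their groups overlapped, 4 of 5 genes were above the floor on all arrays, and the sum was lowest in Sham_Vehicle replicate 2, where Reg3g was lowest too. Macrophage markers, beside Saa3, summed to 3010.2 and 2728.1 in BDL_GW4064, 2500.1 and 1859.5 in BDL_Vehicle, and 1597.5 and 1755.0 in Sham_Vehicle, with 8 of 9 tested genes higher and a median of 0.42 for BDL_GW4064 minus BDL_Vehicle and 0 called.

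Fibroblast and matrix markers summed to 3532.5 and 4442.8 in BDL_GW4064, 1158.4 and 1539.6 in BDL_Vehicle, and 1177.0 and 1883.0 in Sham_Vehicle. All 9 were higher in BDL_GW4064 than in BDL_Vehicle, with a median of 1.51, and Fn1, the matrix protein fibronectin, passed (1.90 ± 0.16, adjusted p = 0.0094). Fat markers summed to 856.7 and 1600.4 in BDL_GW4064, 564.9 and 922.1 in BDL_Vehicle, and 690.0 and 1028.3 in Sham_Vehicle. Smooth muscle markers were far higher in BDL_GW4064 replicate 2 alone, 3.53 above their mean on the log2 scale. The part of these cells in the Saa3, Serpina3n and Osmr values, and in the Reg3a value of BDL_GW4064 replicate 2, was not tested. Liver markers, beside Saa1 and Saa2, summed to 132.0 and 185.5 in BDL_GW4064, 132.3 and 116.8 in BDL_Vehicle, and 150.1 and 148.5 in Sham_Vehicle. Of 5 measured, Ttr was above the floor on all arrays, Cyp2e1 in BDL_GW4064 replicate 2 alone (84.1), and Alb, Ahsg and Apoa2 were between 2.2 and 30.5.

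**Figure D4:**
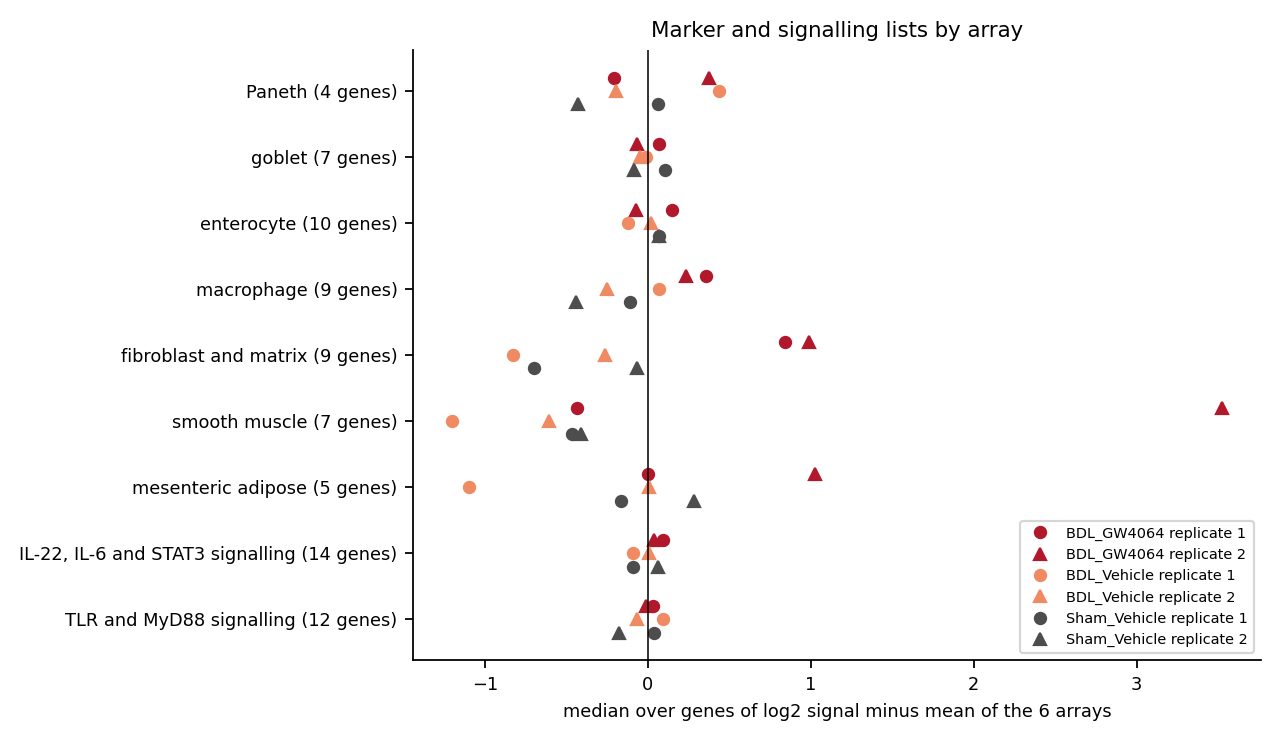
Median over the tested genes of each marker or signalling list of the log2 signal minus its mean over the 6 arrays, 1 point an array. The fibroblast and macrophage points of the 2 BDL_GW4064 arrays lie right of all others, smooth muscle stands out at 3.53 in BDL_GW4064 replicate 2, and the 2 signalling lists stay near 0.

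Genes outside the families with the most similar array pattern were sought among 860 probe sets, as a description over 6 arrays. Each was annotated to 1 gene, passed the filter and varied by a log2 SD of at least 0.5. For Reg3g the closest were Cldn2, a pore-forming tight junction protein (r = 0.962), Cbx5, a heterochromatin protein (r = 0.953), and Cdc45, a DNA replication factor (r = 0.946). Cldn2 had 184.1 and 311.5 in BDL_GW4064, 335.4 and 296.1 in BDL_Vehicle, and 355.7 and 136.2 in Sham_Vehicle. For Reg3b (1416297_s_at) the closest were Cdc45 (r = 0.942), Uri1 (r = 0.941) and Cbx5 (r = 0.94). That 2 of 3 genes recurred is not a separate observation, since this probe set and Reg3g had r = 0.989. Both recurring genes were dim, Cdc45 with 14.3 and Cbx5 with 16.4 in Sham_Vehicle replicate 2, below the floor of 37.1.

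For Saa2 the closest were Ceacam10 (r = 0.984), 1810065E05Rik (r = 0.977) and Cacul1 (r = 0.965), and Ceacam10 had 172.1 and 185.5 in BDL_GW4064, 317.3 and 220.9 in BDL_Vehicle, and 373.4 and 149.1 in Sham_Vehicle. For Reg3a they were Dab1 (r = 0.987), Serf1 (r = 0.971) and Rdh16f2 (r = 0.934). For Reg1 they were the nuclear non-coding RNA Malat1 (r = 0.978), Rbm47 (r = 0.952) and Pnrc2 (r = 0.946). Between 6 and 11 of the 860 probe sets exceeded an r of 0.9 for each member.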

How the data were processed

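Total RNA of 6 mouse ileum samples (5 µg each) was labelled and hybridised to Affymetrix arrays, 1 sample an array, per the labels' protocols. The deposited values were linear intensity values, MAS5 signals per the submitters' processing notes, with the version not given in the sources used here, and detection calls were not used here. Samples were grouped by their titles. Symbols came from the platform annotation, and all 10 member gene identifiers were found in RefSeq (GRCm38.p6), the source of the sequences too. That assembly is used for RefSeq sequence only, since the array table names no build.

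After removal of 64 control probe sets, log2(signal + 4) of all 6 arrays was fitted in limma 3.58.1 (R 4.3.3) with 1 mean per group and a signal trend in the variance prior. The pseudocount was the 10th percentile of signals. Of 22626 probe sets the lowest 40% were filtered out and 13575 tested, with Benjamini-Hochberg adjustment over them at 0.05. The fit had 3 residual degrees of freedom, to which the prior added 4.71. The procedure was tested on simulated data. A fold against a group below 37.1 in both arrays uses that floor. Where groups of 2 are compared, the number of arrays limits the precision.

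Members, gene lists and naming rules were chosen with earlier results of these data known. Every member was named. From each list came all called genes and otherwise up to 4 with the smallest p in the comparison. Some genes were named outside that rule, such as Il10rb, Il6ra and Il17ra as other receptor chains. Likeness took the 3 genes with the highest r for each member's brightest tested probe set. Alternatives were median centring, quantile normalisation, a pseudocount of 1 or 16, a filter at 60% or none, a robust prior, a prior without the trend, a fit of the 4 arrays of a comparison alone, array weights, a term for the 18S array sets, a replicate block and each array left out. Same-numbered arrays did not pair (correlations of deviations 0.037, 0.094 and -0.119).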

Additional observations from a re-analysis of the deposited data

How the results depend on the processing

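Member probe sets called numbered 0 in each comparison and every alternative run, with a range of 0 to 0 when single arrays were left out. Of 540 alternative member values 12 reversed, a count that took in tested probe sets only. Many of the 540 could not reverse. The alternative filters and priors, array weights, the replicate block and the fit of 4 arrays alone change the test and not the difference. Leaving out an array of the group not compared does likewise. Of the values of probe sets below the filter, 1 (Saa3, BDL_GW4064 minus Sham_Vehicle, 1.21 with the array set) moved by more than the spread between replicates. The signs of Saa1 and Retnlb changed within that spread. The smallest adjusted p of a member over all alternatives was 0.2 (BDL_Vehicle minus Sham_Vehicle), 0.153 (BDL_GW4064 minus BDL_Vehicle) and 0.0774 (BDL_GW4064 minus Sham_Vehicle, Reg3a at -1.29 without BDL_GW4064 replicate 1). Over all probe sets, the calls for BDL_Vehicle minus Sham_Vehicle numbered 4, with 2 without a filter (more probe sets tested), 1 without the signal trend, 2 with the replicate block and 1 to 6 when single arrays were left out (fewer arrays). For BDL_GW4064 minus BDL_Vehicle they numbered 7, with 4 without a filter, 2 without the trend, 12 with a robust prior, 4 with the replicate block, 2 with a term for the 18S array sets and 2 to 56 when single arrays were left out. A crossed pairing, chosen after seeing the data, gave 7. For BDL_GW4064 minus Sham_Vehicle they numbered 5, with 3 after median centring, 0 without the trend, 0 with the replicate block, 0 with the array set and 1 to 32 when single arrays were left out. The replicate block changed no member call, and the replicates share only a number. Reversed values for BDL_Vehicle minus Sham_Vehicle came from leaving out arrays, with ranges of -0.46 to 0.089 for Reg1 (highest without Sham_Vehicle replicate 1), -0.001 to 0.36 for Reg3b 1448290_at (lowest without BDL_Vehicle replicate 1) and -0.37 to 0.81 for Saa2 (-0.37 without Sham_Vehicle replicate 2, -0.06 without BDL_Vehicle replicate 1). Those for BDL_GW4064 minus Sham_Vehicle were Reg3b 1416297_s_at (-0.001 after median centring, -0.11 without BDL_GW4064 replicate 2, range -0.30 to 0.32, lowest without Sham_Vehicle replicate 2), Reg3b 1448290_at (0.15 with the array set), Reg3g (-0.14 without BDL_GW4064 replicate 2, range -0.56 to 0.75, lowest without Sham_Vehicle replicate 2) and Saa2 (0.30 with the array set, range -0.85 to 0.33, highest without Sham_Vehicle replicate 1). For BDL_GW4064 minus BDL_Vehicle 0 values of tested member probe sets reversed. The causes of the other shifts were not tested. Signals near or under 37.1 (Reg1, Retnlb, Saa1, Saa2, Saa3) limit how far differences of these probe sets can be measured.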

Other observations

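Relatives of the members gave little signal. Of 6 annotated relatives only Reg4, a lectin of enteroendocrine and goblet cells, was tested, with 1023.1 and 720.5 in BDL_GW4064, 1031.2 and 804.0 in BDL_Vehicle, and 964.8 and 553.9 in Sham_Vehicle. It differed by -0.08 ± 0.28 for BDL_GW4064 minus BDL_Vehicle (limma adjusted p = 0.981), and its replicate 1 was higher than replicate 2 in every group. Reg2, Reg3d, Retn, Retnla and Saa4 were below the filter. Itih3, a plasma protein of the acute phase list below the filter and chosen after its values were seen, had 44.2 and 41.5 in BDL_GW4064, 5.7 and 8.4 in BDL_Vehicle, and 8.0 and 8.3 in Sham_Vehicle. Nr1h4, the gene of FXR, had 319.3 and 274.7 in BDL_GW4064, 539.8 and 423.8 in BDL_Vehicle, and 428.2 and 317.5 in Sham_Vehicle, and differed by -0.68 ± 0.20 for BDL_GW4064 minus BDL_Vehicle (adjusted p = 0.426). Of 8 neutrophil markers 0 were above the floor on any array, and S100a8, S100a9 and Mpo were between 0.9 and 16.8.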
